A study of Mus musculus with 22 samples.

Results

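The 10 genes described here encode molecular chaperones: Hspa1a, Hspa1b, Hspa8, Hspa5, Hsp90aa1, Hsp90ab1, Hsph1, Dnajb1, Hspd1 and Hspe1. Cells make some of these in larger amounts after heat, protein damage or tissue dissociation, and others also without stress. The genes were taken by name from a fixed list, and 10 of 10 were found among the 55291 gene names that each RNA-seq library lists. Levels are given in FPKM, the number of fragments on a gene divided by its length and by the size of the library, so that genes of unlike length can be compared. The members that separated the locations in FPKM were Hspa1a and Hspa1b, the heat-inducible pair. They lay higher in each of the 4 tissue libraries than in each of the 3 usable circulating ones. With values rescaled to an equal sum over protein-coding names, both genes overlapped between locations. Their average difference did not pass the adjusted threshold of 0.05.

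The libraries came from mouse CD4+ T cells, all labelled as lung, from female mice 6 to 10 weeks old with Balb/c as host strain. The 4 groups, with 2 libraries each, were ex-TRM and ex-Tcirc cells found in tissue, and ex-TRM and ex-Tcirc cells found in the circulation; the titles name where the cells were found (tissue or circulating) and the population they came from (TRM or Tcirc). According to the design text, effector Th2 cells of OT-II creERT2 or DO11.10 T cell receptor transgenic donors were given to recipients that had been sensitized with OVA, either BALB/c-nu/nu mice, which lack a normal thymus, or C57BL/6 (Ly5.2) mice. Tamoxifen was used to trace cells of the OT-II creERT2 donors, and cells were sorted on day 49 or, after a second transfer and OVA rechallenge, on day 71. The design text places circulating ex-TRM cells in peripheral blood, although their libraries are labelled lung like the rest, so whether circulating cells went through lung dissociation is not known. The labels do not say which experiment an RNA library belongs to, and the promoter that drives the Cre is not given in the sources used here. Both experiments used donors with a transgenic T cell receptor, transfer and OVA exposure, so no library is described as coming from an unexposed host. Nothing says that replicates came from separate animals, so p-values measure the spread between libraries, which may be technical.

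The libraries differ in how much they hold. Tissue ex-TRM libraries listed 37471 and 37894 names above 0, tissue ex-Tcirc libraries 30488 and 32617, circulating ex-TRM replicate 2 listed 29688, and circulating ex-Tcirc libraries 12785 and 7042. Circulating ex-TRM replicate 1 listed 917, with all 10 heat shock genes at 0, and is treated as missing, which leaves that group with 1 library. The depth in reads is unknown, since the files hold no counts. Of 12 T cell markers, 12 were above 0 in each tissue library and in circulating ex-TRM replicate 2; circulating ex-Tcirc replicate 1 had 11, with Cd3d at 0, and replicate 2 had 8, with Cd3d, Cd247, Cd5 and Lck at 0.

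Chaperones bind unfolded stretches of other proteins and help them fold. HSP70 proteins do this with ATP, J-domain proteins such as Dnajb1 deliver clients to them, HSP110 proteins such as Hsph1 exchange their nucleotide, and HSP90 proteins take over late-folding clients such as kinases and receptors. Heat shock factor 1 switches on many of these genes by binding repeats of GAA and TTC in their DNA, called heat shock elements. In the endoplasmic reticulum (ER), unfolded proteins switch on Hspa5 through a separate response and its own promoter motif. Warm enzymatic digestion of a tissue is known to raise heat shock and immediate early transcripts in the cells it frees, which is why these genes are read as a sign of handling in sorted T cells; the labels do not describe how the lungs were dissociated.

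Promoters from RefSeq (GRCm38.p6, the sequence also called mm10) were available for 7 of the 10 genes, all but Hspa8, Hsp90aa1 and Hsp90ab1. The stretches below are shown for the motifs they hold, and the first pair also because its 2 promoters are nearly identical. The first pair lies 215 to 86 bases before the starts of Hspa1a (chr17:34972242-34972371, minus strand) and Hspa1b (chr17:34959324-34959453, minus strand). Capitals mark GAANNTTC, a pair of heat shock units.
Hspa1a: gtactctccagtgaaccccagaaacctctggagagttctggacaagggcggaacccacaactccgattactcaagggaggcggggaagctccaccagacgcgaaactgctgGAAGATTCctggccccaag
Hspa1b: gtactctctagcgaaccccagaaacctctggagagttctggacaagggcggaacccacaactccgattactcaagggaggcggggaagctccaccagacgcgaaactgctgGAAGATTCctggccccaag
Between these stretches 128 of 130 bases are identical, and the differences are C9T and T12C, with the Hspa1a base first and positions counted from 1 at the 5′ end of the stretch. Over the whole 250 bases before the start, 247 are identical.

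The next stretches carry the opposite arrangement, TTCNNGAA, from Hsph1 (chr5:149636342-149636391, minus strand), the 3-unit element TTCNNGAANNTTC, read once on each strand of a single run, from the stretch before Hspe1 (chr1:55088054-55088083, plus strand), and the ER stress element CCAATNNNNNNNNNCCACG from Hspa5 (chr2:34772010-34772069, plus strand). Capitals mark the match in Hsph1 and Hspa5, and the whole run of heat shock units in Hspe1.
Hsph1: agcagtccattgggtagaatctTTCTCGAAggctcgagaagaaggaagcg
Hspe1: gtccgTTCTAGAACCTTCCGGAAggccccg
Hspa5: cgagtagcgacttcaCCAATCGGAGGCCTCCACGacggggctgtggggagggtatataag
Searched on both strands over 250 bases of all 32851 promoters in the table, GAANNTTC was found in 6.69%, TTCNNGAA in 7.17%, the 3-unit element in 0.466% and the ER stress element in 0.113%. The 3-unit element contains both 2-unit motifs, and Hspd1 and Hspe1, divergent neighbours whose annotated spans overlap at their starts (chr1:55077833-55088243 and chr1:55088148-55091317), share the same copy. Dnajb1 held none of the heat shock motifs in this window, which says only that these letters are not there. A match is a description of the sequence and not a bound site.

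Hspa1a and Hspa1b encode the heat-inducible HSP70 proteins. On the build given above, both lie on the minus strand of chromosome 17, Hspa1a at chr17:34969359-34972156 and Hspa1b at chr17:34956429-34959238, 10120 bases apart. Only their promoters were compared here, not their transcripts. If the transcripts are as alike, fragments may be split between them by the quantification, so their values are not taken as separate evidence. Hspa1a had 240.8 and 114.8 FPKM in tissue ex-TRM libraries, 181.5 and 165.7 FPKM in tissue ex-Tcirc libraries, 60.6 FPKM in the circulating ex-TRM library, and 112.5 and 53.9 FPKM in circulating ex-Tcirc libraries. The lowest tissue library lay just above the highest circulating one. Hspa1b had 266.2 and 130.6 FPKM in tissue ex-TRM libraries, 196.7 and 183.7 FPKM in tissue ex-Tcirc libraries, 71.8 FPKM in the circulating ex-TRM library, and 112.4 and 72.1 FPKM in circulating ex-Tcirc libraries. Again the locations did not overlap, while in tissue the ex-TRM libraries lay on both sides of the ex-Tcirc ones. Protein-coding names summed to 193841 FPKM in tissue ex-TRM replicate 2 and to 160241 FPKM in circulating ex-Tcirc replicate 1. Relative to these sums, both genes were lower in that tissue library than in that circulating one. Factors from the median of ratios, another way to scale libraries, were 1.0254 for that tissue library and 1.0642 for that circulating one. With these, both genes stayed higher in that tissue library. The separation thus depends on the scaling, and is described here for FPKM as deposited.

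Averaged over libraries, the Hspa1a level was 175.7 ± 51.9 FPKM in tissue (SD, n = 4) and 75.7 ± 32.0 FPKM in circulating cells (SD, n = 3), a ratio of means of 2.32. For Hspa1b the level was 194.3 ± 55.8 FPKM in tissue (SD, n = 4) and 85.5 ± 23.4 FPKM in circulating cells (SD, n = 3), a ratio of 2.27. Of the 8 heat shock genes tested, this pair made 2 whose locations did not overlap in FPKM and lay higher in tissue. Among all 2656 genes tested the share was 12.1% (23.9% in either direction), and 8.47% among the 1558 of them above 0 in all 7 libraries. These are bulk samples, so a difference in the number of cells that carry a transcript and in the RNA per cell cannot be told apart. The order of the pair among all protein-coding names shows the same shift: Hspa1a ranked 55, 196, 57 and 91 in tissue libraries and 560, 252 and 450 in circulating ones.

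**Figure D1:**
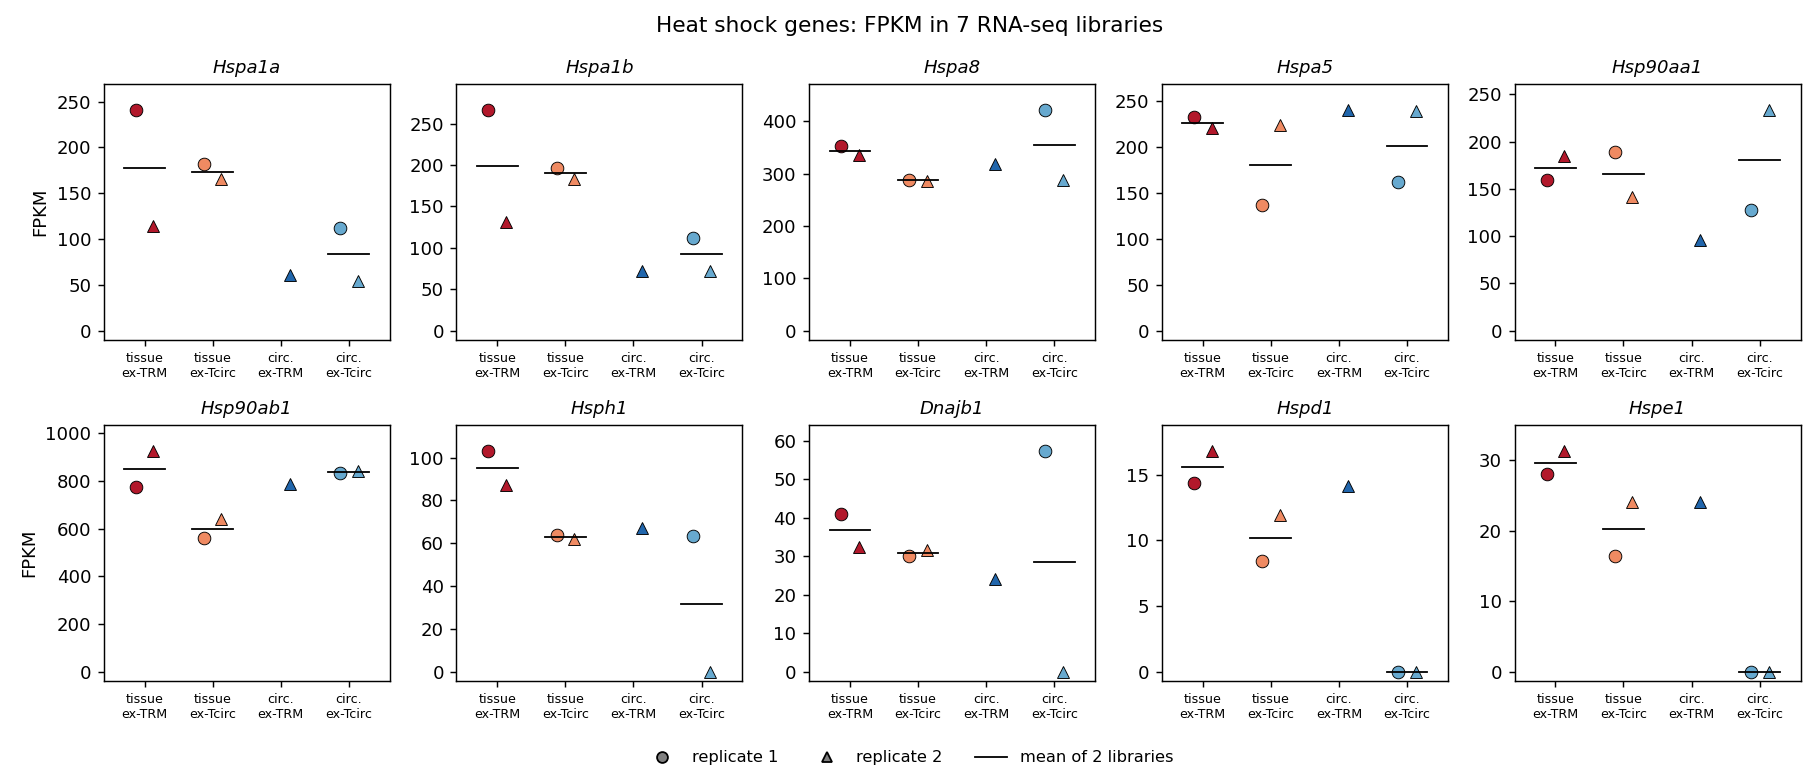
FPKM of each of the 10 heat shock genes (one panel each, vertical axis from 0) in the 7 usable RNA-seq libraries, by group, with replicate 1 as circles, replicate 2 as triangles and a bar at the mean of 2 libraries. Hspa1a lies between 114.8 and 240.8 FPKM in tissue libraries and between 53.9 and 112.5 FPKM in circulating ones, while Hsp90ab1 is high in every group and Hspd1 and Hspe1 are at 0 in circulating ex-Tcirc cells.

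Both other HSP70 genes, Hspa8 and Hspa5, gave overlapping groups. Hspa8, which encodes the HSP70 protein that cells make without stress (HSC70), had 352.6 and 334.8 FPKM in tissue ex-TRM libraries, 288.8 and 286.0 FPKM in tissue ex-Tcirc libraries, 319.0 FPKM in the circulating ex-TRM library, and 421.3 and 287.7 FPKM in circulating ex-Tcirc libraries. Its rank among protein-coding names stayed between 26 and 44 in the 7 libraries. Hspa5, the HSP70 of the ER also known as BiP, had 232.6 and 220.6 FPKM in tissue ex-TRM libraries, 136.9 and 224.4 FPKM in tissue ex-Tcirc libraries, 240.4 FPKM in the circulating ex-TRM library, and 161.9 and 239.9 FPKM in circulating ex-Tcirc libraries. Tissue and circulating means of Hspa5 differed by less than 1 SD, with 203.6 ± 44.7 FPKM in tissue (SD, n = 4) and 214.1 ± 45.2 FPKM in circulating cells (SD, n = 3).

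HSP90 in the cytosol comes from 2 genes, the more stress-inducible Hsp90aa1 and the constitutive Hsp90ab1. Hsp90ab1 was the highest of the 10 genes in every usable library, and ranked between 4 and 10 among protein-coding names. It had 773.2 and 923.3 FPKM in tissue ex-TRM libraries, 559.6 and 640.8 FPKM in tissue ex-Tcirc libraries, 786.2 FPKM in the circulating ex-TRM library, and 833.6 and 839.5 FPKM in circulating ex-Tcirc libraries. Both tissue ex-Tcirc libraries were thus the lowest of the 7. Hsp90aa1 had 159.2 and 184.9 FPKM in tissue ex-TRM libraries, 189.1 and 141.6 FPKM in tissue ex-Tcirc libraries, 96.2 FPKM in the circulating ex-TRM library, and 128.1 and 233.4 FPKM in circulating ex-Tcirc libraries. Circulating libraries of Hsp90aa1 held both its lowest and its highest value.

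Hsph1, the HSP110 nucleotide exchange factor, and Dnajb1, the J-domain partner of inducible HSP70, had lower levels. Hsph1 had 102.9 and 87.2 FPKM in tissue ex-TRM libraries, 63.9 and 62.1 FPKM in tissue ex-Tcirc libraries, 67.1 FPKM in the circulating ex-TRM library, and 63.2 and 0 FPKM in circulating ex-Tcirc libraries. Dnajb1 had 41.0 and 32.4 FPKM in tissue ex-TRM libraries, 30.2 and 31.7 FPKM in tissue ex-Tcirc libraries, 24.2 FPKM in the circulating ex-TRM library, and 57.2 and 0 FPKM in circulating ex-Tcirc libraries. The zeros of both genes fell in the same library, circulating ex-Tcirc replicate 2, where 7 of 12 housekeeping genes were above 0, against 12 of 12 in the other 6.

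Hspd1 and Hspe1 encode HSP60 and HSP10, the ring and lid of the mitochondrial chaperonin. Hspd1 had 14.3 and 16.8 FPKM in tissue ex-TRM libraries, 8.46 and 11.9 FPKM in tissue ex-Tcirc libraries and 14.1 FPKM in the circulating ex-TRM library, and was listed at 0 in replicates 1 and 2 of circulating ex-Tcirc. Hspe1 had 28.0 and 31.2 FPKM in tissue ex-TRM libraries, 16.4 and 24.1 FPKM in tissue ex-Tcirc libraries and 24.1 FPKM in the circulating ex-TRM library, and was at 0 in the same pair of libraries. Where both were above 0, the Hspe1 level was 1.71 to 2.02 times that of Hspd1, so the divergent neighbours kept nearly the same ratio over 5 libraries. Because their spans overlap and the strand setting of the counting is not known, some fragments may be assigned to either gene.

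Such zeros were common in genes of that level. Of 2336 protein-coding names with a tissue mean of 8 to 16 FPKM, the range of Hspd1, 50.9% had a 0 in replicates 1 and 2 of circulating ex-Tcirc, and 2.18% in the circulating ex-TRM library. Of 1508 names at 16 to 32 FPKM, the range of Hspe1, 30.8% had a 0 in that pair. Between 64 and 128 FPKM, the range of Hsph1, 43.2% of 271 names were at 0 in circulating ex-Tcirc replicate 2, and between 128 and 256 FPKM, the range of Hspa1a and Hspa1b, the share was 23.6% of 106. A 0 in these libraries is therefore given as listed, and no fold is drawn from it.

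**Figure D2:**
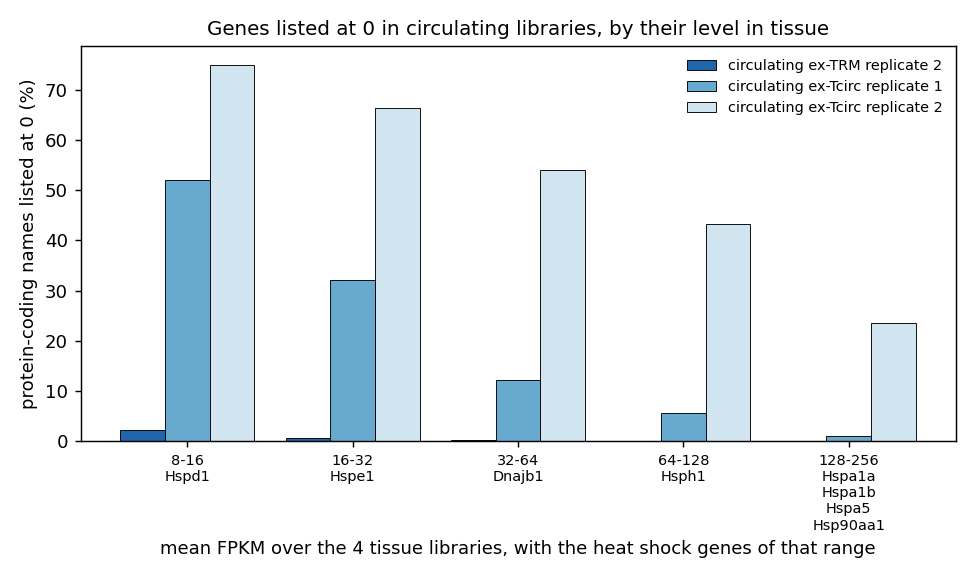
Share of protein-coding names listed at 0 FPKM (vertical axis, percent) in each of the 3 usable circulating libraries, by the mean FPKM of the name over the 4 tissue libraries (horizontal axis, with the heat shock genes of each range). Between 16 and 32 FPKM the share is 0.597% in circulating ex-TRM replicate 2, 32.1% in circulating ex-Tcirc replicate 1 and 66.4% in replicate 2.

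Ratios within a library do not depend on how the library was scaled, so the inducible genes were also set against constitutive relatives; these ratios were chosen after the values had been seen. The summed level of Hspa1a and Hspa1b over that of Hspa8 was 1.44 and 0.733 in tissue ex-TRM libraries, 1.31 and 1.22 in tissue ex-Tcirc libraries, 0.415 in the circulating ex-TRM library, and 0.534 and 0.438 in circulating ex-Tcirc libraries. Tissue averaged 1.18 ± 0.308 (SD, n = 4) and circulating cells 0.462 ± 0.0629 (SD, n = 3), without overlap. The mean difference was 1.31 on the log2 scale, with an exact permutation p of 0.0571 (two-sided, the smallest that 4 against 3 libraries can give, 0.114 adjusted over the 2 ratios). The separation of the pair in FPKM was already known when this ratio was chosen, so its p is not separate support. The mean difference stayed between 1.20 and 1.52 when each library was left out in turn.

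For the HSP90 pair, Hsp90aa1 over Hsp90ab1 was 0.206 and 0.200 in tissue ex-TRM libraries, 0.338 and 0.221 in tissue ex-Tcirc libraries, 0.122 in the circulating ex-TRM library, and 0.154 and 0.278 in circulating ex-Tcirc libraries. These locations overlapped, and the log2 difference of 0.44 had an exact permutation p of 0.286 (two-sided, 0.286 adjusted). The difference between inducible and constitutive genes was thus seen without overlap for HSP70 and not for HSP90; whether the ratios differ from each other was not tested.

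**Figure D3:**
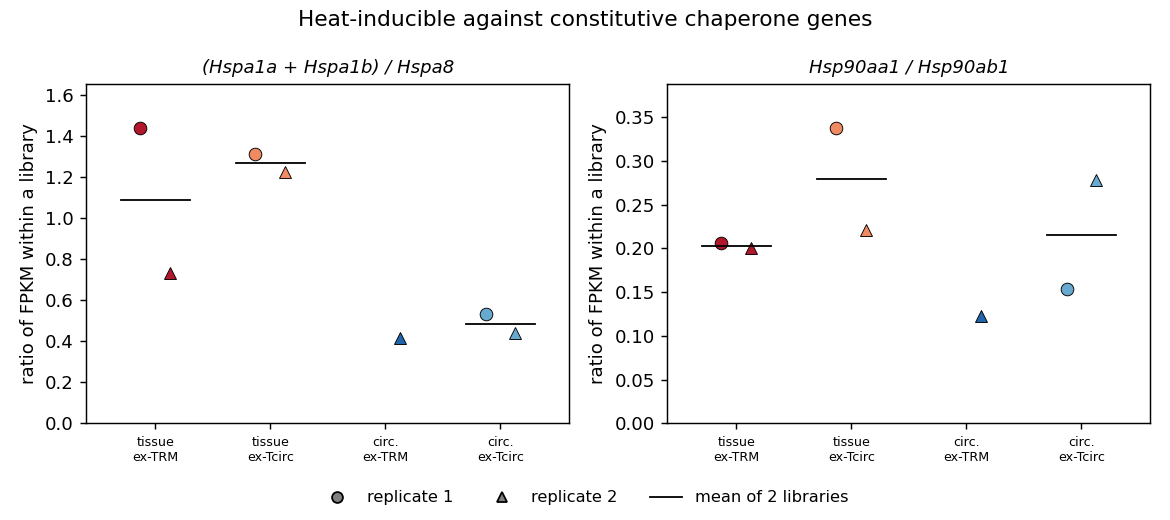
Ratio of FPKM within each of the 7 usable libraries (vertical axis from 0), for Hspa1a plus Hspa1b over Hspa8 and for Hsp90aa1 over Hsp90ab1, by group. The HSP70 ratio lies between 0.733 and 1.44 in tissue libraries and between 0.415 and 0.534 in circulating ones, and the HSP90 ratio overlaps between locations.

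The difference between tissue and circulating cells was then fitted with limma on log2(FPKM + 1), averaged over both origins, with 2656 genes that had a mean of at least 20 FPKM and Benjamini-Hochberg adjustment over all of them. A difference on this scale understates the change of low genes. Of the 8 heat shock genes that entered, 0 passed an adjusted p of 0.05 and 2, Hspa1a and Hspa1b, had an unadjusted p under 0.05. Of all 2656 genes, 468 had an unadjusted p under 0.05 and 195 passed, or 7.34% (6.55% higher and 0.791% lower in tissue). The median difference of the members was 0.80, against 0.43 over all genes tested, and 5 of 8 were positive, against 63.3% of all. That median includes Hsph1 and Dnajb1, which were at 0 in circulating ex-Tcirc replicate 2. It also includes both Hspa1a and Hspa1b, which are not taken as separate evidence. It is therefore not read as a shift of the members as a set. The count of all genes is not firm: it was 0 without any one of the 4 tissue libraries, 1860 of 2678 without circulating ex-Tcirc replicate 1, and 1172 of 2777 without replicate 2 of that group.

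Hspa1b differed by 1.22 ± 0.37 (log2, SE, 95% interval 0.23 to 2.21, limma adjusted p = 0.192). Hspa1a differed by 1.29 ± 0.44 (interval 0.10 to 2.48, limma adjusted p = 0.242). Without circulating ex-Tcirc replicate 1 the limma adjusted p was 0.0151 for Hspa1a and 0.0198 for Hspa1b, and without replicate 2 it was 0.0497 for Hspa1b, in fits where the counts of all genes passing were as just given. Within ex-Tcirc alone the pair gave 1.14 ± 0.55 for Hspa1a (limma adjusted p = 0.336) and 1.07 ± 0.46 for Hspa1b (limma adjusted p = 0.283), and 9.11% of all genes passed (8.36% higher and 0.753% lower in tissue). Within ex-TRM, where 2 tissue libraries faced 1 circulating library, the values were 1.44 ± 0.68 and 1.36 ± 0.57 (limma adjusted p = 1 for both), and 0 genes passed, with 87 at an unadjusted p under 0.05. Both origins thus gave positive differences for the pair, and neither passed the threshold.

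Hspa8, Hspa5 and Hsp90ab1 lay close to 0. Hspa8 differed by -0.08 ± 0.21 (log2, SE, interval -0.65 to 0.48, limma adjusted p = 0.836), Hspa5 by -0.13 ± 0.29 (limma adjusted p = 0.823) and Hsp90ab1 by -0.19 ± 0.16 (limma adjusted p = 0.67). Signs this near 0 turn with scaling: with factors from the median of ratios, which move the median of all genes by 0.14, Hspa8 was at 0.08 and Hspa5 at 0.03. With values rescaled to an equal sum over protein-coding names, Hspa8 was lower in tissue ex-Tcirc than in circulating ex-Tcirc libraries by -0.65 (limma adjusted p = 0.00438). That rescaling moved the median of all genes in the same comparison by 2.14. Hsp90aa1 differed by 0.37 ± 0.31 (limma adjusted p = 0.648). For Hsph1 and Dnajb1 the single 0 widened the intervals, which ran from -2.72 to 6.20 around 1.74 and from -3.06 to 5.70 around 1.32, and without that library Dnajb1 was at -0.15. Within ex-Tcirc the calls for Dnajb1 turned round with 1 library: it was lower in tissue, at -0.87, without circulating ex-Tcirc replicate 2 (limma adjusted p = 0.0366) and higher, at 4.996, without replicate 1 (limma adjusted p = 0.000121), which leaves the 0 alone. No direction is drawn for Dnajb1.

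**Figure D4:**
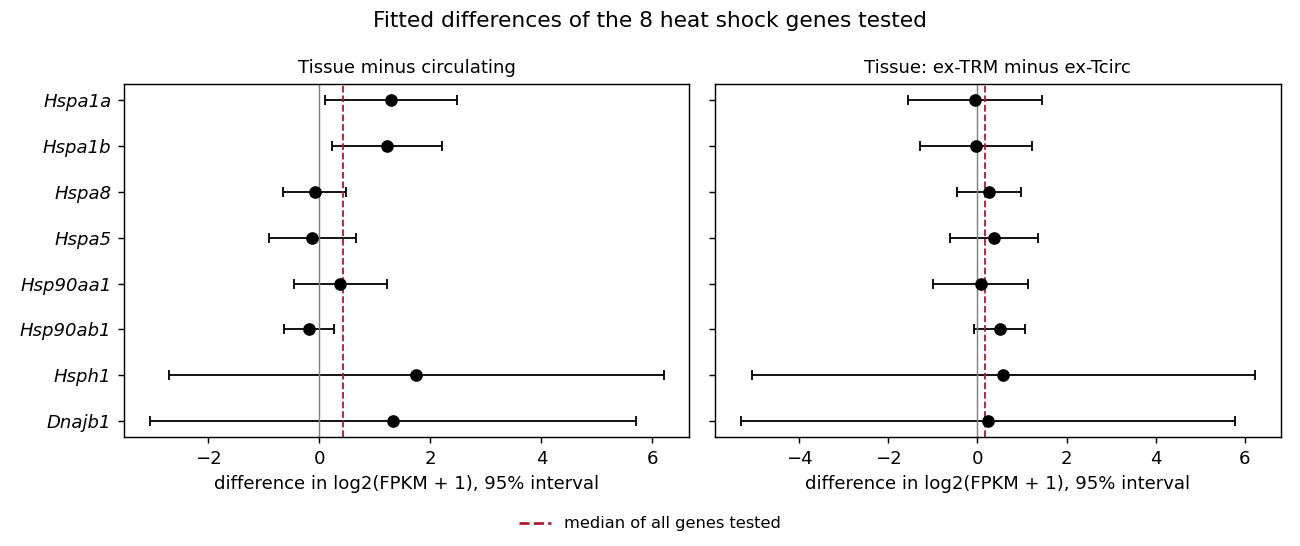
Fitted differences in log2(FPKM + 1) of the 8 heat shock genes tested, with 95% intervals, for location (tissue minus circulating, averaged over origins) and for origin within tissue (ex-TRM minus ex-Tcirc), with a dashed line at the median of all genes tested. For location, the intervals of Hspa1a and Hspa1b lie above 0 before adjustment, and those of Hsph1 and Dnajb1 are the widest.

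Hspd1 and Hspe1 fell under the mean of 20 FPKM and were tested with a minimum of 5 FPKM, in which 9096 genes entered and 24.8% passed for the averaged location difference. The fitted values were 1.80 for Hspd1 and 2.33 for Hspe1, and 3.47 and 4.38 within ex-Tcirc, where 29% of all genes passed. These values set tissue against exact zeros in the same 2 libraries, which have no spread of their own, so the fit's errors and p-values are not given and no difference is drawn from them. The circulating ex-TRM library lay inside the tissue range for both genes, and within ex-TRM the fitted values were 0.13 ± 0.33 for Hspd1 and 0.28 ± 0.35 for Hspe1 (limma adjusted p = 1 for both). The interaction, which passed for 22.1% of all genes in that fit, rests on the same zeros, and the part of the few names listed in those libraries was not tested.

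Between ex-TRM and ex-Tcirc cells within tissue, 0 of the 8 heat shock genes and 0 of 2656 genes passed in limma. An unadjusted p under 0.05 was reached by 7 genes. With 2 libraries on each side, this does not show that the populations are alike. Hsp90ab1 averaged 848.2 ± 106.1 FPKM in tissue ex-TRM and 600.2 ± 57.4 FPKM in tissue ex-Tcirc libraries (SD, n = 2 each), a log2 difference of 0.50 ± 0.21 with a 95% interval of -0.07 to 1.06 (limma adjusted p = 1). Hsph1 averaged 95.04 ± 11.1 FPKM in tissue ex-TRM and 63.0 ± 1.26 FPKM in tissue ex-Tcirc libraries (SD, n = 2 each). For 4 of the 8 members, Hspa8, Hsp90ab1, Hsph1 and Dnajb1, both ex-TRM libraries lay above both ex-Tcirc libraries, which was also so for 40.4% of all genes tested. That share is near the members' own, so the count says nothing particular about chaperones. Hspa1a and Hspa1b, at -0.06 ± 0.55 and -0.03 ± 0.46, had intervals too wide to place them. The location difference was compared between origins by an interaction, which passed for 0 of the 8 members (smallest limma adjusted p = 0.841) and for 0.151% of all genes.

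The rest of the chaperone network was taken from 11 lists of 131 other genes, of which 57 entered the fit. For the averaged location difference 2 of the 57 passed, both higher in tissue, and 0 passed as lower; the median was 0.53, against 0.43 over all genes. Cct2, a subunit of the cytosolic TRiC chaperonin, differed by 2.195 ± 0.33 (limma adjusted p = 0.0378), and had 36.7 and 44.8 FPKM in tissue ex-TRM, 31.4 and 40.8 FPKM in tissue ex-Tcirc, 71.9 FPKM in circulating ex-TRM and 0 FPKM in replicates 1 and 2 of circulating ex-Tcirc. Ern1, the ER stress sensor IRE1, differed by 2.66 ± 0.35 (limma adjusted p = 0.0325), and had 32.3 to 48.1 FPKM in tissue, 39.8 FPKM in circulating ex-TRM and 0 FPKM in the same pair of libraries. Both calls rest on the same pair of zeros as Hspd1 and Hspe1 and have the same limit, and the circulating ex-TRM library lay within or above the tissue range.

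Partners of the inducible HSP70 pair gave no passing gene. Among other J-domain genes 5 of 20 entered and all 5 were positive, as were 63.3% of all genes, but 4 of the 5 (Dnaja2, Dnajb6, Dnajc7 and Dnajc8) were at 0 in circulating ex-Tcirc replicate 2, and the median of the 5 in ex-TRM was 0.02. Dnaja1, a cytosolic HSP70 partner and the exception, had 53.2 to 92.3 FPKM in tissue and 51.0 to 85.6 FPKM in circulating libraries (0.19, limma adjusted p = 0.742). Of the nucleotide exchange factors, 2 of 10 entered, and both were at 0 in circulating ex-Tcirc replicate 2. Bag6 had 32.2 to 61.6 FPKM in tissue and 0 to 38.7 FPKM in circulating libraries. Bag1 had 35.7 to 46.1 FPKM in tissue, 65.3 FPKM in circulating ex-TRM, and 75.1 and 0 FPKM in circulating ex-Tcirc libraries. The overlap of Bag1 thus rests on that 0. Of the other HSP70 and HSP110 genes, 3 of 9 entered, 2 of them positive, with a median of 1.38. Hspa4, an HSP110 protein of the cytosol, had 31.8 to 52.0 FPKM in tissue and 0 to 42.8 FPKM in circulating libraries (1.42, limma adjusted p = 0.71), with its 0 in circulating ex-Tcirc replicate 2. Hyou1, an HSP70 relative of the ER, had 20.9 to 23.7 FPKM in tissue and 22.9 to 102.7 FPKM in circulating libraries (-0.74, limma adjusted p = 0.51). The 6 small heat shock genes and the 8 genes of mitochondrial proteostasis all stayed under the minimum. Hsf1, which encodes heat shock factor 1, had 22.2 to 38.5 FPKM in tissue and 19.9 to 120.0 FPKM in circulating libraries (-0.33, limma adjusted p = 0.821).

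The HSP90 co-chaperones had 8 of 14 genes tested, 7 of them positive, and a median of 0.44, close to that of all genes. St13, which links HSP70 to HSP90, had 33.5 to 43.5 FPKM in tissue and 17.3 to 35.7 FPKM in circulating libraries (0.34, limma adjusted p = 0.714). Unc45a, a myosin and HSP90 chaperone and the negative one of the 8, had 36.1 to 48.0 FPKM in tissue and 44.2 to 65.4 FPKM in circulating libraries (-0.37, limma adjusted p = 0.496).

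Immediate early genes are the other known sign of dissociation. Of 18 listed, 16 entered and 0 passed. For the averaged difference 13 were positive, against 63.3% of all genes, and their median was 0.23, against 0.43 over all genes. Within ex-Tcirc 9 of the 16 were positive, against 64.9% of all genes, with a median of 0.23 against 0.87. Within ex-TRM, with 1 circulating library, 14 were positive, against 45.2% of all genes, with a median of 0.26 against -0.06. How these genes stand against all genes thus depends on the origin compared. Fos, a subunit of the AP-1 transcription factor, had 676.8 and 553.9 FPKM in tissue ex-TRM, 457.8 and 666.8 FPKM in tissue ex-Tcirc, 381.2 FPKM in circulating ex-TRM, and 352.5 and 433.8 FPKM in circulating ex-Tcirc libraries. Its locations did not overlap, with a difference of 0.59 ± 0.23 (limma adjusted p = 0.311), and it was 1 of the 16 for which this was so, against 12.1% of all genes. Fosb, its relative, overlapped, with 366.8 to 751.7 FPKM in tissue and 290.2 to 441.9 FPKM in circulating libraries.

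Markers of other cell types differed between libraries beside these values. The summed level of lung epithelial markers was 4.107 to 101 FPKM in tissue libraries and 41.7, 623 and 0 FPKM in circulating ones. Macrophage and monocyte markers summed to 114 to 225 FPKM in tissue and 132, 787 and 334 FPKM in circulating libraries. Ccr2 held 59.0 to 70.7 FPKM of that sum in tissue. In circulating ex-Tcirc replicates 1 and 2, 6 and 3 of the 10 markers were above 0, and Lyz2 held 645.7 and 255.2 FPKM. The macrophage sum thus rests on few markers. B cell markers summed to 22.9 to 395 FPKM in tissue and 37.2, 257 and 0 FPKM in circulating libraries. Lung epithelial and macrophage sums were highest in circulating ex-Tcirc replicate 1, which also had the highest circulating level of Hspa1a. Their part in the heat shock values was not tested.

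Across the 7 libraries, Hspa1a and Hspa1b followed each other (Pearson r = 0.991 on log2 values), as did Hsph1 and Dnajb1 (r = 0.977), which share the library at 0. Hspa1a and Hspa8 did not (r = 0.12), and Hspa1a and Hsp90ab1 ran opposite (r = -0.50); these are descriptions over libraries that share groups and depth. The genes whose pattern was most like the mean of the 8 members, among 2648 others, were Bptf (r = 0.996), Ciz1 (r = 0.988), Litaf (r = 0.986), Zeb2 (r = 0.986) and Smarca2 (r = 0.984). Each of these 5 had its lowest value in circulating ex-Tcirc replicate 2, the library that holds the zeros of Hsph1 and Dnajb1.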

How the data were processed

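RNA-seq of sorted mouse CD4+ T cells was analysed in 8 libraries of 22 samples; the 14 ATAC-seq samples were not analysed here. The deposited values are FPKM per gene, computed by the authors, per the headers of the files. The submitters' processing notes list HISAT2 2.2.1, HOMER 4.11, MACS2 2.2.7.1, SAMtools 1.15, StringTie 3.0.1, Trim Galore 0.6.7 and the build mm10, without the role of each. Libraries are described in the labels' protocols as strand-specific, made from 3000 to 50000 sorted cells and read as pairs of 50 cycles; no annotation or strand setting is given in the sources used here. Depth is unknown and no interval for counting error can be given.

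Titles gave each sample's group and replicate number. Rows that share a gene name were added up within a library. Circulating ex-TRM replicate 1 was treated as missing. Differences were fitted with limma 3.58.1 (R 4.3.3) on log2(FPKM + 1), a group-means model over 7 libraries with a mean-variance trend. Genes with a mean of at least 20 FPKM entered, with Benjamini-Hochberg adjustment at 0.05. The fit was tried on simulated data with normal noise, which do not copy the zeros of the circulating libraries. Ratios were compared by an exact permutation test (scipy 1.17.1). Promoters are RefSeq's.

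The members, the gene lists and the tests were chosen with earlier results of these data known. Genes of the other lists were named if they passed in any of the 5 comparisons, and otherwise as the 2 with the highest mean FPKM of a list; not all are printed. Other pseudocounts, filters, scalings, models and left-out libraries were tried.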

Additional observations from a re-analysis of the deposited data

Results flagged for a closer look

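For the mitochondrial chaperonin genes, the fitted interaction (location difference in ex-TRM minus that in ex-Tcirc, minimum mean of 5 FPKM) was -3.34 on the log2 scale for Hspd1 and -4.10 for Hspe1, past the adjusted threshold in limma like 22.1% of 9096 genes. It sets exact zeros in the 2 circulating ex-Tcirc libraries, which have no spread, against 1 circulating ex-TRM library, so its p-values do not measure replicate error and no difference between origins is drawn. Of protein-coding names of like tissue level, 50.9% (for Hspd1) and 30.8% (for Hspe1) were at 0 in the same pair.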

How the results depend on the processing

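Counts of genes passing moved with almost every choice. For the averaged location difference (195 of 2656), they were 4345 without a filter, 3618 with at least 1 FPKM in at least 2 libraries, 2259 with a mean of at least 5 FPKM, 1 with genes above 0 in all 7 libraries, 2550 after rescaling over protein-coding names, 0 with a replicate block, library weights or all 8 libraries, 1 with location as the only term (added after seeing the data), and 0 to 1860 with each library left out. The ex-Tcirc count (242) was 4981 without a filter, 5984 with 1 FPKM in 2 libraries, 2640 with a mean of 5 FPKM, 13 with genes above 0 in all 7, 2638 rescaled, 158 with the replicate block, 0 with weights, all 8 libraries or the groups compared alone, and 0 to 1969 with one library left out. In ex-TRM (0) it was 854 without a filter, 54 rescaled, 86 with weights, 268 with the groups compared alone and 0 to 60 with one left out; for origin in tissue (0) it was 584 without a filter and 1 rescaled. The interaction (4) gave 179 with a pseudocount of 0.1, 3165 without a filter, 2099 with 1 FPKM in 2 libraries, 2013 with a mean of 5 FPKM, 111 with median-of-ratios factors, 2419 rescaled, 0 with all genes above 0, the block, weights or 8 libraries, and 0 to 1704 with one left out.

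Heat shock genes passing (0) numbered 2 for the averaged difference without a filter, with the looser filters and rescaled (Hspd1 and Hspe1 when rescaled). They numbered 0 to 5 with one library left out. In ex-Tcirc and for the interaction they numbered 2 with the same filters, 3 rescaled (with Hspa8) and 0 to 4 with one left out. Large shares of all genes passed in such fits. With a mean of at least 5 FPKM these were 24.8% of 9096 for the averaged difference, 29% in ex-Tcirc and 22.1% for the interaction. Rescaled, 2488 of 7316 passed as higher and 62 as lower for the averaged difference. With one library left out, the counts of all genes moved as given above. The counts of heat shock genes are therefore not read as a result about chaperones. Rescaling moved the median of all genes by 1.14 for the averaged difference.

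Of the single values for averaged location, origin in tissue, the ratios and Hspa1a and Hspa1b within each origin, 359 kept direction and side, 6 newly passed, 0 were lost and 17 turned sign; of the other members' values within each origin and all members' interactions, 321 kept, 7 newly passed and 24 turned sign. Among these others, Hsph1 in ex-Tcirc was 6.00 without circulating ex-Tcirc replicate 1 and -0.0053 without replicate 2. The Dnajb1 interaction was -4.42 and 1.44 under the same omissions. Without replicate 1 the Hsp90aa1 interaction was 1.34. Each omission leaves 1 library in that group, and without replicate 1 the Hsph1 and Dnajb1 values rest on a single 0. No direction is drawn from them. For location, the values that turned sign with all 8 libraries were Hspa8 1.996, Hspa5 1.85 and Hsp90ab1 2.22. With median-of-ratios factors they were Hspa8 0.0771 and Hspa5 0.0346. Ranges with one library left out were -0.22 to 0.0526 for Hspa8, -0.30 to 0.0503 for Hspa5 and -0.15 to 2.79 for Dnajb1. For origin in tissue they were -0.59 to 0.47 for Hspa1a, -0.54 to 0.48 for Hspa1b and -0.14 to 0.28 for Hsp90aa1, which was -0.10 with median-of-ratios factors and -0.15 rescaled. Hspa1a for location ranged from 1.03 to 2.78 over all alternatives (adjusted p 0.0151 to 0.735). Causes were not tested.

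Replicate numbers did not pair the libraries: correlations of deviations between same-numbered libraries were 0.01, -0.04 and -0.09. Under the replicate block Hspa1a was at 1.11 and Hspa1b at 1.07 for location. Without circulating ex-TRM replicate 2 the averaged, ex-TRM and interaction comparisons gave no value, and fitting only the groups compared gave none of its own where all groups enter.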
